A study of Mus musculus with 6 samples.

Results

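The endoplasmic reticulum (ER) chaperones and stress factors examined here are 10 genes of the 43346 gene IDs counted in the livers of C57BL6 mice aged 3 months. They were taken by symbol: Hspa5, Hsp90b1, Calr, Canx, P4hb, Pdia3, Pdia4, Xbp1, Atf4 and Ddit3, and all 10 were found and passed the filter on low counts. The study held 3 Control libraries, whose genotype the labels give only as Control, and 3 libraries labelled DKO, from a hepatocyte-specific double knockout of β-catenin and γ-catenin. The sources used here do not give the Cre line, the floxed alleles or the sex of the mice. The labels number the libraries within a group without naming animals. The p-values therefore measure the spread among these libraries alone, and that spread may be technical.

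The ER is where secreted and membrane proteins fold, and hepatocytes, which secrete most plasma proteins, carry a large one. Chaperones of the Hsp70 and Hsp90 classes, the lectins of the calnexin cycle and the protein disulfide isomerases fold these proteins there. When misfolded proteins build up, the sensors IRE1, PERK and ATF6 start the unfolded protein response: IRE1 splices the Xbp1 transcript, PERK favours translation of ATF4, and ATF4 in turn raises the CHOP gene Ddit3. Splicing and translation leave no trace in counts per gene, so the values below are total transcript levels.

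The promoters are shown first because the chaperone genes are textbook targets of the unfolded protein response through the ER stress response element (ERSE). The RefSeq promoter table (build GRCm38.p6) held 1 window per member, from 250 bases before the transcription start to 50 after it. Each window was searched on both strands for the ERSE (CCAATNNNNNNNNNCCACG), the ERSE-II (ATTGGNCCACG), the core of the UPRE, an XBP1 element (TGACGTG), and a C/EBP-ATF element (TGATGNAA). The ERSE was in 4 of the 10 windows and in 0.119% of 32851 promoter windows of the same length. The UPRE core was in the Hspa5 window alone among the members and in 2.01% of all windows. ERSE-II and the C/EBP-ATF element were in 0 of the 10 windows and in 0.0365% and 3.97% of all windows. These are matches of letters, and no factor's binding was measured.

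The 4 ERSE windows and that of Atf4, which had 0 matches and was the 1 member to pass the test between the groups, read as follows over the 250 bases before the start, on the strand of the gene and with matches in capitals. The regions are chr2:34771840-34772089 (plus strand), chr10:86705445-86705694 (minus), chr8:84846932-84847181 (minus), chr11:50325674-50325923 (minus) and chr15:80254934-80255183 (plus).
Hspa5: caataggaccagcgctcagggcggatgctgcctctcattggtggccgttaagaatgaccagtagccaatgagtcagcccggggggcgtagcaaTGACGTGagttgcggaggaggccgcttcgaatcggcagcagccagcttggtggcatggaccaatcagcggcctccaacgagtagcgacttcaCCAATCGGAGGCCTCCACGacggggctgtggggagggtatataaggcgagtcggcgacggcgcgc
Hsp90b1: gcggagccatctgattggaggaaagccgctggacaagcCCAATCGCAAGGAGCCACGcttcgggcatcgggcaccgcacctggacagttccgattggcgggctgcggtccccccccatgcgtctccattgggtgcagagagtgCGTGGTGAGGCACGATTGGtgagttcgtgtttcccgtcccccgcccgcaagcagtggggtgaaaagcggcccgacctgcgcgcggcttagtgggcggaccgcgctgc
Calr: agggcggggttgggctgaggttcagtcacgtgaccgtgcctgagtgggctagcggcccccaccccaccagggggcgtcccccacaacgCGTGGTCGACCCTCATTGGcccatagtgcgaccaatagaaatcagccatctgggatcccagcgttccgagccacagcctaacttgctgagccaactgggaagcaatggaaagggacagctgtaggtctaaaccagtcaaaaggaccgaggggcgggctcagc
Canx: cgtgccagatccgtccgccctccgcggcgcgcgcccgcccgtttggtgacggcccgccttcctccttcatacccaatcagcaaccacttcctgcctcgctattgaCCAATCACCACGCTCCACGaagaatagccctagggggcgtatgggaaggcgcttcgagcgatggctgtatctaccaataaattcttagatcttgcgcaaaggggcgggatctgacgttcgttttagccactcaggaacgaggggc
Atf4: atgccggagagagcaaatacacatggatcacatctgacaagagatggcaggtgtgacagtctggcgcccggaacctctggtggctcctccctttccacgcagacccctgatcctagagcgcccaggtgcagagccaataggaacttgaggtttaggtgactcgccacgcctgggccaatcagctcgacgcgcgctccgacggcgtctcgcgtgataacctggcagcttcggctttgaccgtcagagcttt
In the Hspa5 stretch the first run of capitals is the UPRE core and the second the ERSE, at -65 to -47 from the start. Hsp90b1 carried 2 ERSE copies, 1 in each orientation, at -212 to -194 and -107 to -89, and none of the matches overlapped another. Calr had its copy in reverse orientation at -162 to -144, and Canx in forward orientation at -145 to -127.

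**Figure D1:**
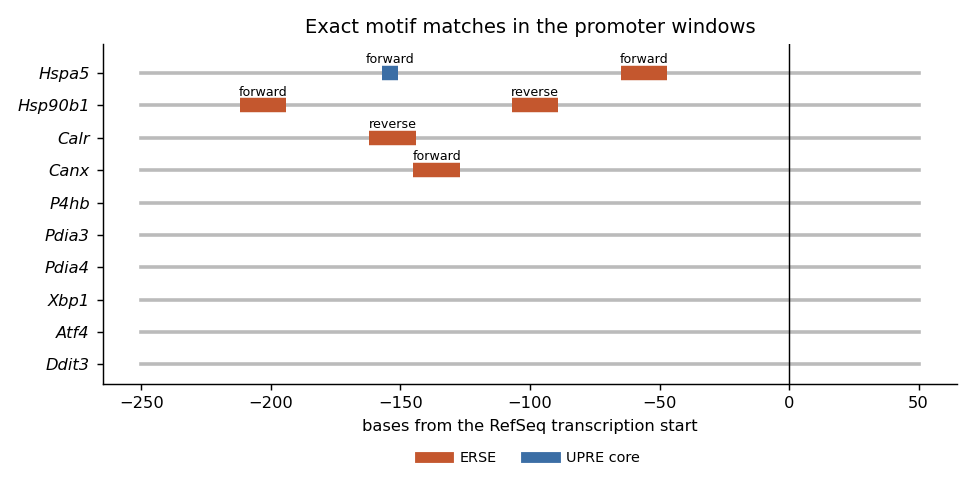
Exact matches of the ERSE (orange) and the UPRE core (blue) in the promoter windows of the 10 members, by distance in bases from the RefSeq transcription start. Hspa5, Hsp90b1, Calr and Canx hold the ERSE, Hsp90b1 holds 2 copies, and the other 6 windows hold 0 matches.

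Library facts bear on every value between the groups. Each Control library had 12320487 to 15869639 reads assigned to genes, against 309731, 525037 and 1491237 for DKO replicates 1, 2 and 3. Albumin (Alb), the main hepatocyte secretory product, took 6.58% to 7.66% of gene reads in Control against 0.0933%, 3.08% and 0.322% in DKO replicates 1, 2 and 3. Mitochondrial transcripts took 6.34% to 6.57% of gene reads in Control against 6.27%, 14.4% and 62.7% in DKO replicates 1, 2 and 3. Values given as a part of all gene reads count them in the total, which lowers those of DKO replicate 3. Of the targeted genes, Ctnnb1 had 2945, 2896 and 2650 Control reads against 0, 52 and 65 in DKO libraries (adjusted p = 0.171, edgeR). Jup had 339, 270 and 196 reads against 6, 1 and 11 (adjusted p = 0.0847, edgeR), so neither passed the test and the libraries are called DKO-labelled, or DKO for short. All 10 hepatocyte markers had reads in every library, summing to 94873 to 112669 CPM (counts scaled to the gene reads of the library) in Control against 1989, 44944 and 4880 for DKO replicates 1, 2 and 3. In liver RNA, fewer cells of a type and less RNA per cell cannot be told apart.

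In Control liver the folding machinery was abundant and the stress factor Ddit3 scarce. Levels were compared between genes as RPKM, read counts scaled by exon length and by the gene reads of the library (n = 3 libraries, SD). P4hb (ENSMUSG00000025130, chromosome 11, 120560298 to 120573253, mm10), the founding protein disulfide isomerase, was highest at 413, 401 and 385 RPKM, a mean of 399.6 ± 14.3. It ranked 117th among 21278 protein-coding genes. Calr (ENSMUSG00000003814, chromosome 8, 84841850 to 84846934), the soluble lectin calreticulin, came next at 270, 177 and 158 RPKM. Hspa5 (ENSMUSG00000026864, chromosome 2, 34771970 to 34777547), which encodes BiP, the Hsp70 of the ER that also holds the stress sensors inactive, had 195, 152 and 157 RPKM. The isomerase Pdia3, which works with the calnexin cycle (ENSMUSG00000027248, chromosome 2, 121413775 to 121438687), had 169, 126 and 117 RPKM. The Hsp90 of the ER, Hsp90b1 (ENSMUSG00000020048, chromosome 10, 86690209 to 86705509), had 164, 128 and 117 RPKM.

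The membrane lectin calnexin and the transcription factors lay lower. Xbp1 (ENSMUSG00000020484, chromosome 11, 5520659 to 5525893), the target of IRE1, had 85.9, 84.6 and 79.7 RPKM, the highest level of the transcription factors. Canx (ENSMUSG00000020368, chromosome 11, 50293961 to 50325673) had 76.0, 69.8 and 73.3 RPKM. The isomerase Pdia4 (ENSMUSG00000025823, chromosome 6, 47796141 to 47813430) had 73.9, 44.7 and 44.3 RPKM. Atf4 (ENSMUSG00000042406, chromosome 15, 80255184 to 80257541) stood at 26.7, 24.8 and 29.6 RPKM and Ddit3 (ENSMUSG00000025408, chromosome 10, 127290774 to 127296288) at 5.996, 4.64 and 3.32. Ddit3 ranked 4985th among protein-coding genes, against 1432nd for Atf4 and 583rd for Xbp1.

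The order of the 10 means was the order within each Control library except that Pdia3 and Hsp90b1 changed places. Neighbours whose ranges over the Control libraries overlapped were Calr with Hspa5, Hspa5 with Pdia3, Pdia3 with Hsp90b1, and Canx with Pdia4. P4hb lay above all others, and Xbp1, Atf4 and Ddit3 were each apart from the gene below or above them in the order.

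**Figure D2:**
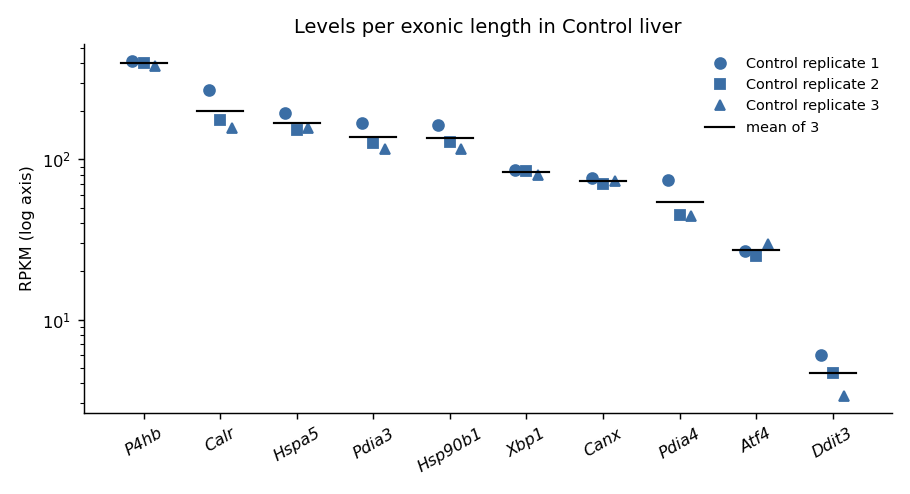
RPKM (log axis) of the 10 members in the 3 Control libraries, in the order of their means, with 1 symbol per library and a bar at the mean. P4hb is highest at a mean of 399.6 RPKM and Ddit3 lowest at 4.65, and replicate 1 is the highest library for every member except Atf4.

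The members fell into steady and variable genes among the Control libraries. The coefficient of variation of the RPKM was 3.58% for P4hb, 3.91% for Xbp1, 4.29% for Canx and 8.99% for Atf4. It was 14.0% for Hspa5, 18.2% for Hsp90b1, 20.5% for Pdia3, 28.8% for Ddit3, 29.8% for Calr and 31.2% for Pdia4. In RPKM, Control replicate 1 was the highest library in each of these 6 variable genes and, by less, in P4hb, Xbp1 and Canx. On a common scale (TMM-scaled CPM, adjusted for library composition) replicate 1 stood at 1.58 times the mean of the other two for Pdia4, 1.53 for Calr, 1.43 for Ddit3, 1.32 for Pdia3, 1.27 for Hsp90b1 and 1.198 for Hspa5. The steady genes lay at 1.01 for Canx, 1.00 for P4hb, 0.99 for Xbp1 and 0.93 for Atf4.

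The ERSE genes were thus on both sides, with Hspa5, Hsp90b1 and Calr variable and Canx steady. Over 2595 genes with at least 50 CPM in Control, the median of this ratio was 0.94, and 9.52% exceeded 1.2. Of the 9 members at that level, 4 exceeded 1.2. So did 4 of 8 co-chaperones and folding factors at that level, 3 of 12 genes of the N-glycan cycle, 0 of 13 of the translocon and 5 of 15 chaperones outside the ER. Summed markers of hepatocytes and of other cells were also higher in this library. The 10 hepatocyte markers summed to 112669 CPM in replicate 1 against 98829 and 94873. The summed level of 8 sinusoidal endothelial markers was 425 CPM in replicate 1 against 230 and 229, and that of 8 stellate cell markers 347 against 200 and 236. The 8 Kupffer cell markers summed to 249 against 186 and 182 CPM. Their part in the difference was not tested. It is a description of 1 library and has no replicate.

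Between the groups, 9 of the 10 members had all their DKO-labelled values below all their Control values, and 1 of them, Atf4, passed the test. These 9 compare with 36.4% of the 15561 genes tested, and with 87.3% of those 2595 whose Control level was at least 50 CPM, a level that all members except Ddit3 reached. Another 34% of all genes tested were higher in every DKO-labelled library. The test was edgeR's quasi-likelihood test across all genes, with p adjusted by Benjamini and Hochberg over all of them and a threshold of 0.05. It called 1 member lower and 0 higher. All 10 log2 fold changes were negative in edgeR, DESeq2 and limma-voom, so 0 members were higher at an unadjusted p under 0.05 either. These counts stand beside 12.8% of all genes lower and 31.3% higher, and 21.3% lower among genes with at least 50 CPM in Control. Fold changes are DKO-labelled over Control throughout. The median log2 fold change of the members was -2.51, against -0.08 over all genes and -2.20 over genes with at least 50 CPM in Control. Their position was thus near that of other well-expressed liver genes.

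BiP and the ER form of Hsp90 fold a broad range of proteins in the lumen. Hspa5 stood at 999, 817 and 850 TMM-scaled CPM in Control and at 21.6, 310 and 109 in DKO, on 17, 180 and 101 reads (log2 fold change -2.60, SE 1.21, adjusted p = 0.104 by edgeR). Hsp90b1 had 803, 658 and 603 CPM against 19.1, 208 and 77.9 (log2 fold change -2.76, SE 1.15, adjusted p = 0.0768 by edgeR). In both genes DKO replicate 2 was the highest of its group and replicate 1 the lowest, with a gap to the lowest Control library. Hsp90b1 overlaps 1810014B01Rik on the opposite strand, a pseudogene with 5126, 3431 and 2841 reads in Control against 15, 76 and 36 in DKO. The sources used here do not give the strand setting, so reads of the pair cannot be told apart.

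The lectins of the calnexin cycle hold glycoproteins until they are folded. Calr had 941, 649 and 581 CPM in Control against 3.82, 232 and 74.6 in DKO (log2 fold change -2.81, SE 1.36, adjusted p = 0.116 by edgeR). Its membrane-bound relative Canx had 432, 417 and 440 against 25.5, 234 and 72.5 (log2 fold change -1.96, SE 1.04, adjusted p = 0.145 by edgeR). The Control libraries agreed closely on Canx, and DKO replicate 2 came nearest to them.

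The disulfide isomerases make and reshuffle disulfide bonds. P4hb had 1433, 1457 and 1410 CPM in Control against 15.3, 639.8 and 148 in DKO (log2 fold change -2.42, SE 1.39, adjusted p = 0.172 by edgeR). Pdia3 had 644, 503 and 469.6 CPM against 0, 189 and 116 (log2 fold change -2.41, SE 1.495, adjusted p = 0.201 by edgeR). Pdia4 had 215, 136 and 136 CPM against 12.7, 87.7 and 68.2, the smallest difference of the folding genes (log2 fold change -1.53, SE 0.83, adjusted p = 0.151 by edgeR). The spread among the DKO-labelled libraries was larger than their mean for P4hb (268 ± 329 CPM, SD, n = 3) and close to it for Pdia3 (102 ± 95.4). Outside the isomerases it was also larger than the mean for Hspa5, Calr, Xbp1, Ddit3 and Atf4 (4.22 ± 5.28). The start of Pdia3 overlaps Catsper2 on the opposite strand, which had 72, 44 and 55 reads in Control and 28, 16 and 97 in DKO.

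The transcription factors split. Xbp1 had 338, 349 and 331 CPM in Control against 0, 96.3 and 43.3 in DKO (log2 fold change -2.88, SE 1.37, adjusted p = 0.111 by edgeR). Atf4, the effector of PERK, had 1000, 815 and 860 reads in Control against 1, 6 and 1 in DKO. That is 76.3, 74.3 and 89.4 CPM against 1.27, 10.3 and 1.08, and Atf4 fell (log2 fold change -4.38, SE 0.86, adjusted p = 0.00273 by edgeR).

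Leaving out any 1 of the 6 libraries kept the Atf4 call, with adjusted p from 0.00213 to 0.0188 in edgeR. The call ended when libraries were scaled on abundant liver genes (log2 fold change -1.16, adjusted p = 0.419, edgeR) and when the test was limited to genes with at least 50 CPM in Control (-2.28, adjusted p = 0.0939, edgeR). It also ended with background subtracted on that abundant-gene scale (-3.09, adjusted p = 0.0570, edgeR). Ddit3, the CHOP gene and a target of ATF4, did not separate the groups. It had 163, 111 and 70 reads in Control against 0, 13 and 1 in DKO. Its level of 22.4 CPM in DKO replicate 2 was above the 12.4, 10.1 and 7.27 CPM of Control, and the other two DKO-labelled libraries were below, at 0 and 1.08 CPM (log2 fold change -0.46, SE 1.18, adjusted p = 0.757 by edgeR). The end of Ddit3 overlaps Mars on the opposite strand, which had 998, 882 and 730 reads in Control against 0, 40 and 3 in DKO.

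**Figure D3:**
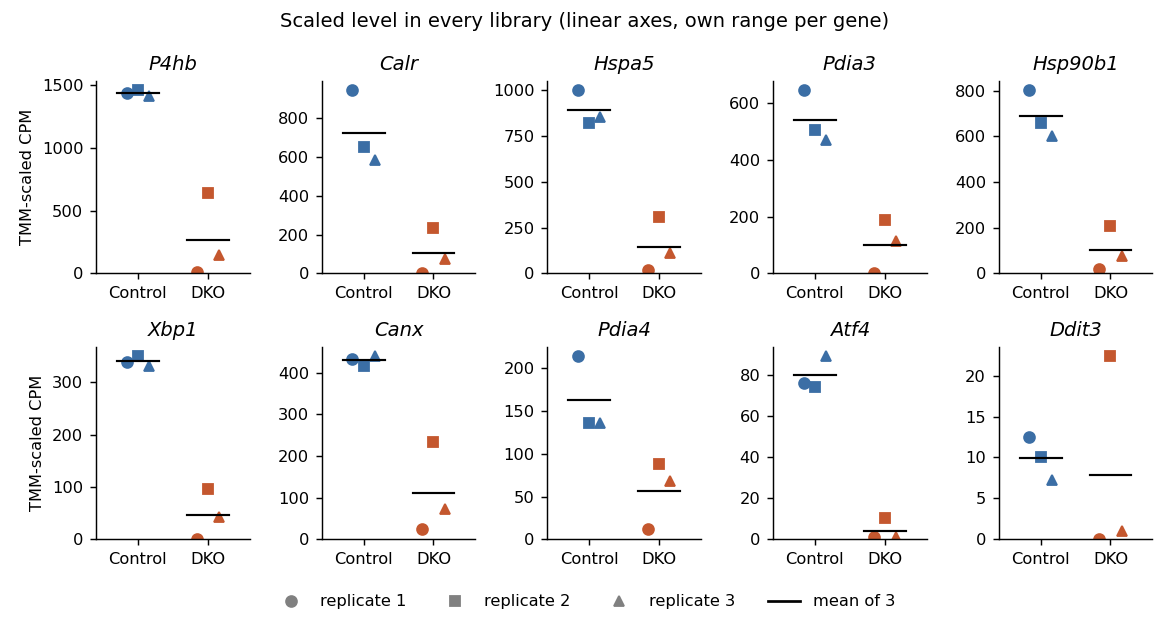
TMM-scaled CPM of each member in every library, on linear axes from 0 with a range of their own, 1 symbol per replicate number and a bar at the mean of 3. Control and DKO-labelled points do not overlap in 9 genes, replicate 2 is the highest DKO-labelled library in all 10, and it exceeds every Control library for Ddit3.

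Which members passed depended on the DKO-labelled libraries included. Without DKO replicate 1, which held the fewest gene reads, 7 members were lower: Hspa5, Hsp90b1, Calr, Pdia3, Pdia4, Xbp1 and Atf4, beside 22% of all genes tested. With background subtracted as well, 1 of these 7 calls was left, Atf4 (adjusted p = 0.0302), and Hspa5 had an adjusted p of 0.125. Without DKO replicate 2 there were also 7: Hspa5, Hsp90b1, Calr, Canx, P4hb, Atf4 and Ddit3, beside 26.7% of all genes. Hspa5 had an adjusted p of 0.0301 in the first case and 0.0206 in the second, and Ddit3 went from a log2 fold change of -0.46 to -4.22 (adjusted p = 0.0162) in the second. DESeq2 on all 6 libraries called 8 members lower, leaving out Pdia3 and Ddit3, beside 30.7% of all genes. Leaving out DKO replicate 3 or a Control library left Atf4 as the 1 call. Without DKO replicate 3 the log2 fold change of Ddit3 turned to 0.22.

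The direction depended on the scale. The alternative scale set each library by the median of 163 abundant nuclear liver genes, members left out. Taken as the amount of liver RNA, it gave 2.09%, 50.2% and 5.15% of gene reads in DKO replicates 1, 2 and 3. That reading holds only if those genes kept their Control proportions in the liver RNA of DKO, which was not tested. The 163 genes include no mitochondrial transcripts, which took 62.7% of gene reads in DKO replicate 3. On that scale log2 fold changes of all genes moved up by a median of 4.46. The members' median became 0.83, against 4.69 over all genes and 1.57 over genes with at least 50 CPM in Control. Pdia4 (2.66) and Canx (2.09) stood highest of the folding genes, and Calr (0.12) and Xbp1 (0.00) near the abundant genes. The 1 member called higher was Ddit3, at 2.07 (adjusted p = 0.0379, edgeR), beside 62.6% of all genes.

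**Figure D4:**
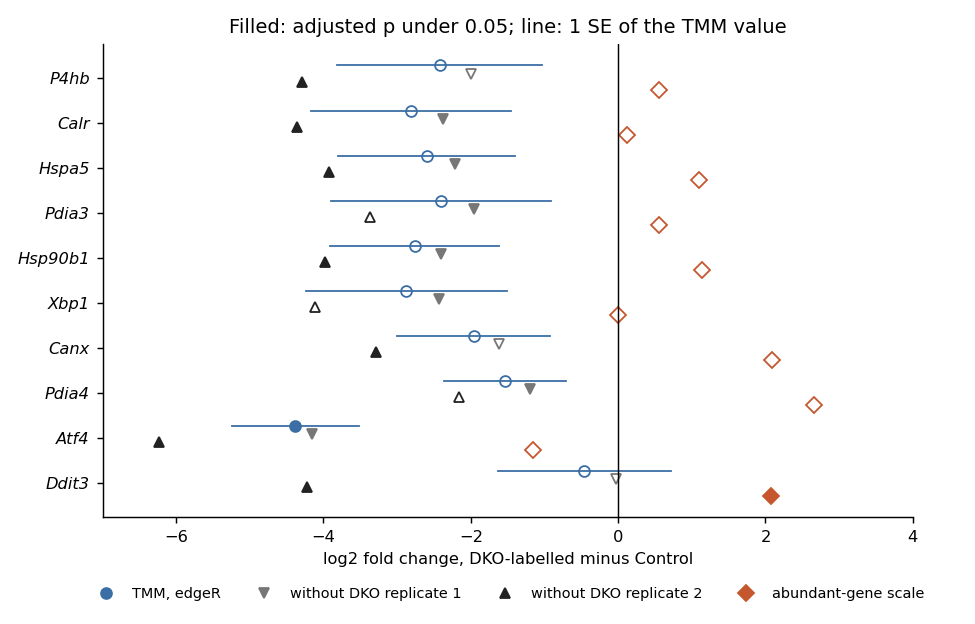
Log2 fold changes of the 10 members, DKO-labelled minus Control, with all libraries and TMM (circles, line of 1 SE), without DKO replicate 1 or 2 (triangles) and on the abundant-gene scale (diamonds). Filled symbols passed an adjusted p of 0.05. With TMM all 10 values are negative, from -4.38 for Atf4 to -0.46 for Ddit3, and on the abundant-gene scale 8 are positive.

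The reads of each member were also set against an expectation for its library. That expectation added the Control proportion at the library's abundant-gene scale, here called liver RNA, to the background. Background was the reads per kilobase found in 8422 protein-coding genes with at most 10 Control reads in all. The scale was set on counts with no background removed, so background reads can enter both parts and raise the expectation. In DKO replicate 2 the 10 members had 1180 reads, with 1116 expected from liver RNA and 34.9 from background. P4hb had 372 reads (95% Poisson interval 335 to 412), above the 295 to 316 expected over the Control libraries. Canx had 136 (114 to 161), above 89.4 to 97.1, and Ddit3 had 13 (6.92 to 22.2), above 3.85 to 5.06. Below the expectation were Xbp1, with 56 reads (42.3 to 72.7) against 72.8 to 78.1, and Atf4, with 6 (2.20 to 13.1) against 18.7 to 21.7. Hspa5, Hsp90b1, Calr, Pdia3 and Pdia4 had intervals that met the expected range. Among genes with at least 50 CPM in Control, 20.4% were above and 16.4% below in this library. The comparison concerns the library, not the condition, and the intervals cover counting error only.

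In the other DKO-labelled libraries fewer reads of these genes were expected from liver RNA. In DKO replicate 3 the members had 658 reads, with 325 expected from liver RNA and 87.1 from background. Of these, 5 were above the expectation (Hspa5, Canx, P4hb, Pdia3 and Pdia4) and 2 below (Atf4 and Ddit3), beside 41.6% and 21.6% of genes with at least 50 CPM in Control. Pdia4 stood out there with 63 reads (48.4 to 80.6) against 15.2 to 20.7. In DKO replicate 1 the members had 78 reads in all, with 27.4 expected from liver RNA and 50.9 from background. There 1 was above (Canx, 20 reads) and 3 below (Calr, Pdia3 and Xbp1, with 3, 0 and 0 reads), beside 26.4% and 31.7%. Background was the larger part in this library, so its entry into both parts can weigh most here.

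Canx was the 1 member above the expectation in all 3 DKO-labelled libraries, beside 9.13% of genes with at least 50 CPM in Control, and Atf4 was below it in replicates 2 and 3. For a single gene that background is uncertain. Among nearly silent genes with 3 to 12 expected background reads, 41.1% to 54.9% had no read in a library, and the 95th percentile of the ratio of observed to expected reads was 4.51 to 4.81. The median of that ratio was 0, 0.225 and 0.187 in DKO replicates 1, 2 and 3. A typical gene of this kind thus had fewer reads than its expected background. The 0 or 1 reads of Xbp1, Pdia3, Atf4 and Ddit3 in DKO replicate 1, and of Atf4 and Ddit3 in replicate 3, are values that such genes also showed, and the 20 reads of Canx in replicate 1, with 4.96 expected from background, lie inside that spread too.

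**Figure D5:**
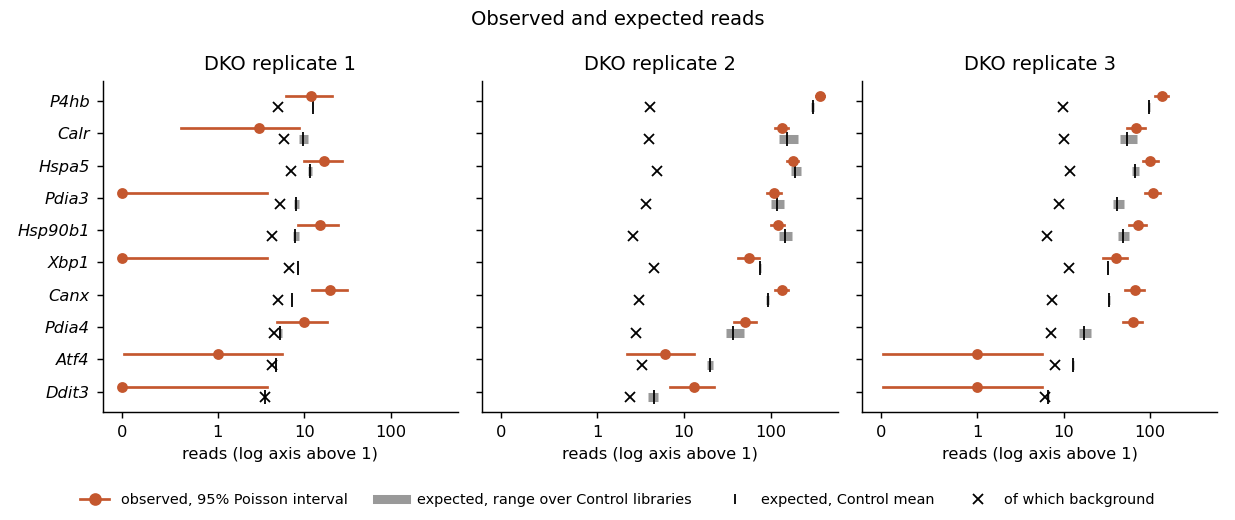
Reads of each member in DKO replicates 1, 2 and 3 (orange, 95% Poisson interval) beside the number expected from the Control proportion plus background (grey range over the 3 Control libraries, tick at the Control mean, cross at the background alone), on an axis that is logarithmic above 1. Most of the expected reads come from liver RNA in replicate 2 (1116, with 34.9 from background), and in replicate 1 the crosses lie near the ticks (27.4 and 50.9).

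Shares among the members need no scale between libraries. P4hb gave 24.3%, 28.7% and 28.7% of the members' reads in Control and 31.5% (95% Wilson interval 28.9 to 34.2) in DKO replicate 2, but 20.8% (17.9 to 24.1) in replicate 3, so its share lay above every Control library in the first and below in the second. Atf4 gave 1.30%, 1.46% and 1.82% in Control, against 0.508% (0.233 to 1.10) in DKO replicate 2 and 0.152% (0.0268 to 0.856) in replicate 3. In both libraries the upper bound lay below every Control share. Ddit3 gave 0.148% to 0.211% in Control and 1.10% (0.645 to 1.88) in DKO replicate 2, but 0.152% (0.0268 to 0.856) in replicate 3. Pdia4 gave 2.69% to 3.64% in Control, 4.32% (3.30 to 5.64) in DKO replicate 2 and 9.57% (7.56 to 12.1) in replicate 3. Canx gave 11.5% (9.83 to 13.5) in DKO replicate 2, above every Control share, and 10.2% (8.10 to 12.7) in replicate 3. Pdia3 gave 9.55% to 10.9% in Control, 9.32% (7.79 to 11.1) in DKO replicate 2 and 16.3% (13.6 to 19.3) in replicate 3. Hsp90b1 gave 12.3% to 13.6% in Control. It gave 10.3% (8.65 to 12.1) in DKO replicate 2, below every Control share, and 10.9% (8.78 to 13.6) in replicate 3. DKO replicate 1 had 78 members' reads in all, of which 50.9 were expected from background. There Canx gave 25.6% (17.3 to 36.3) against 7.33% to 8.95% in Control and Pdia4 12.8% (7.12 to 22.0), both above every Control share. Calr gave 3.85% (1.32 to 10.7) against 11.8% to 15.97%, and Pdia3 and Xbp1 0% (up to 4.69%), below every Control share. The share of Atf4 there, 1.28% (0.227 to 6.91), overlapped Control. Together the members took 0.487%, 0.399% and 0.384% of gene reads in Control against 0.0252%, 0.225% and 0.0441% in DKO.

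Of 90 tested genes of the pathway in 7 lists, 21 (23.3%) were lower and 1 was higher, with a median log2 fold change of -2.07. The share lower is near the 21.3% of genes with at least 50 CPM in Control, whose median was -2.20, and all genes tested had 12.8% lower and 31.3% higher. On the abundant-gene scale 0 were lower and 17 higher, beside 62.6% of all genes higher. Leaving out a Control library left 9 lower, and leaving out DKO replicate 1 or 2 gave 47 or 66.

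Among co-chaperones and folding factors 4 of 14 were lower, with a median of -2.66. Sil1, the nucleotide exchange factor of BiP, had 823, 569 and 524 reads in Control against 3, 2 and 2 in DKO, a log2 fold change of -4.18 (adjusted p = 0.000917, edgeR). Creld2, an ER stress target, had 917, 473 and 406 against 0, 1 and 3, a log2 fold change of -4.90 (adjusted p = 0.00173, edgeR). The most abundant gene of the list, the cyclophilin Ppib, stood at a log2 fold change of -2.52 (edgeR, adjusted p = 0.0910). Of 12 genes of disulfide exchange 2 were lower, Tmx1 (-4.09, adjusted p = 0.00402) and Erp29 (-2.13, adjusted p = 0.0185), both by edgeR. Pdia6, the isomerase with the highest level of that list, had 6585, 4251 and 3905 reads against 0, 105 and 16 and a log2 fold change of -2.72 (adjusted p = 0.168, edgeR).

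Of 14 genes of the N-glycan cycle 3 were lower, 1 with any single Control library left out, and 0 with background subtracted. Rpn1 and Ddost, subunits of the oligosaccharyltransferase, had log2 fold changes of -3.28 (adjusted p = 0.00656, edgeR) and -2.56 (adjusted p = 0.0235, edgeR). ER-associated degradation had 5 of 13 lower, and 2 with background subtracted. All 13 were below Control in every DKO-labelled library, as were 36.4% of all genes tested and 87.3% of those with at least 50 CPM in Control. Its leading genes were Derl2, with 1955, 1568 and 1405 reads against 11, 16 and 20 (-2.80, adjusted p = 0.00661, edgeR), and Selenos (-3.10, adjusted p = 0.0226, edgeR). Herpud1, the most abundant gene of that list, stood at a log2 fold change of -2.58 (edgeR, adjusted p = 0.0968). In the translocon list 1 of 14 was lower, the signal peptidase subunit Spcs2 (-3.72, adjusted p = 0.0165, edgeR). That call ended with limma-voom, with background subtracted and without Control replicate 1, as well as on the abundant-gene scale and among genes with at least 50 CPM in Control. Spcs1 (-3.29, adjusted p = 0.0563) and the channel subunit Sec61b (-1.46, adjusted p = 0.103) did not pass in edgeR.

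Of 10 stress sensors and transducers 2 were lower. Eif2s1, the eIF2α that PERK phosphorylates, stood at a log2 fold change of -2.42 (edgeR, adjusted p = 0.00942), and Atf6b, a relative of ATF6, at -3.39 (adjusted p = 0.0129, edgeR). Creb3l3, a liver factor processed like ATF6, stood at -2.70 (adjusted p = 0.109, edgeR). Of 16 targets of the integrated stress response 13 were tested, 4 were lower and 1 was higher. Atf5 had 1331, 740 and 545 reads in Control against 0, 4 and 0 in DKO (-5.29, adjusted p = 0.00406, edgeR). Cebpb, the most abundant, had 847, 1740 and 1733 against 15, 62 and 162 (-0.42, adjusted p = 0.710, edgeR).

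The 1 pathway gene called higher was Slc7a11, a cystine carrier and target of ATF4, which passed the filter only through the DKO-labelled libraries, so its call supports no direction. It had 1, 0 and 0 reads in Control against 49, 11 and 68 in DKO, a ratio after library scaling of 1883 with a counting interval of 331.9 to 74930 (adjusted p = 0.000671, edgeR). In DKO 14.7, 8.87 and 22.0 reads were expected from background.

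Chaperones outside the ER, a list for comparison, had 5 of 17 tested genes lower and a median of -2.26, between that of the members and that of the pathway lists together. Hspa1b, the inducible cytosolic Hsp70, had 179, 175 and 169 reads in Control against 0, 1 and 0 in DKO. The ratio of Control to DKO-labelled reads after library scaling was 35.6, with a counting interval of 6.36 to 1407 (adjusted p = 0.00635, edgeR), and its value is uncertain because Hspa1a is a near-identical copy. Its partner Dnajb1 stood at a log2 fold change of -2.81 (edgeR, adjusted p = 0.0130), and Hsp90ab1, the most abundant, at -3.17 (adjusted p = 0.131, edgeR). The difference between the ER lists and this list was not tested.

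Markers of other cells were summed beside the members, and in the DKO-labelled libraries they are given with the reads expected from background. The 8 Kupffer cell markers summed to 182 to 249 CPM in Control and to 51.7, 124 and 94.6 in DKO replicates 1, 2 and 3, on 16, 65 and 141 reads with 35.0, 25.9 and 62.8 expected from background. Like the hepatocyte markers, they lay below Control in every DKO-labelled library, in CPM that count mitochondrial reads in the total. The 8 stellate cell markers summed to 200 to 347 CPM in Control against 765, 200 and 308 in DKO, on 237, 105 and 459 reads with 99.3, 68.6 and 170 expected from background.

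The other sums rested in part on single genes. The 8 endothelial markers summed to 229 to 425 CPM in Control and to 759, 255 and 171 in DKO, on 235, 134 and 255 reads with 90.4, 62.5 and 158 expected from background. Pecam1, a marker of endothelium in general, gave 182 of the 235 reads in DKO replicate 1, where Stab1, Clec4g, Oit3 and Fcgr2b were at 0. It gave 44 of 134 and 82 of 255 in replicates 2 and 3. Pecam1 was called higher (log2 fold change 3.05, adjusted p = 0.00959 by edgeR), beside 31.3% of all genes tested. Oit3 and Fcgr2b were called lower (adjusted p = 0.0362 and 0.0215 by edgeR), beside 12.8%. Of the 8 markers, 6 had negative log2 fold changes. The 7 bile duct markers summed to 62.6 to 83.7 CPM in Control and to 326, 204 and 145 in DKO. These were 101, 107 and 216 reads, with 41.1, 29.5 and 72.0 expected from background. Sox9 gave 78 of 101, 67 of 107 and 126 of 216 of these DKO reads and was higher (log2 fold change 4.51, adjusted p = 0.000857 by edgeR). Spp1, with 84.0% to 92.8% of the Control reads of the list, was lower in DKO (log2 fold change -1.85, adjusted p = 0.0442 by edgeR). It was the 1 negative of the 5 tested markers. Epcam (3.86, adjusted p = 0.00763, edgeR) and Krt7 (2.69, adjusted p = 0.0360, edgeR) were also called higher, beside 31.3% of all genes tested. Both needed the DKO-labelled libraries to pass the filter on low counts, so their calls support no direction. Their Control reads were 40, 15 and 9, and 15, 5 and 13. Their DKO reads were 12, 5 and 50, and 2, 1 and 13.

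Plasma cells also carry much ER. Of the B and plasma cell list, Sdc1, which hepatocytes also express, gave 96.1% to 96.6% of the Control reads, so its sum is not a measure of those cells. The other 7 genes had at most 35 reads each in any library. Mzb1, a plasma cell chaperone, was at 0 in all DKO-labelled libraries but had only 1, 5 and 0 reads in Control. The list had 37, 46 and 32 reads in DKO replicates 1, 2 and 3, with 31.6, 23.1 and 57.0 expected from background. Of its 4 tested genes 1, Sdc1, had a negative log2 fold change. Those of Ms4a1 (3.01), Jchain (2.41) and Pou2af1 (3.71) were positive, on at most 13 reads in any DKO-labelled library. Ms4a1 (adjusted p = 0.00605, edgeR) and Pou2af1 (adjusted p = 0.00191, edgeR) were called higher, beside 31.3% of all genes tested. Ms4a1 had 9, 6 and 5 reads in Control against 2, 4 and 5 in DKO, and Pou2af1 9, 6 and 6 against 4, 6 and 9. Both passed the filter on low counts only through the DKO-labelled libraries, so these calls support no direction. The part of other cells in the members' values was not tested.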

How the data were processed

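RNA-seq libraries of mouse liver, 6 in all and 3 per group, were analysed. The authors deposited raw read counts per Ensembl ID, and the submitters' processing notes name STAR, HTSeq and mm10. The sources used here give no version, annotation release or strand setting. In each library 5 rows that name no gene, holding 65.1% to 66.7% of reads in Control and 95.3% to 97.3% in DKO, were left out. Names and exon lengths (GENCODE M21, GRCm38) matched 42462 of 43346 IDs. No pair of libraries was identical or agreed within sampling noise. Sample titles gave group and replicate number.

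The main test was edgeR 4.0.16 (R 4.3.3; quasi-likelihood, robust, TMM, filterByExpr) over 15561 genes, two-sided, without covariates. The code was tested on simulated data with 200 changed genes. Alternatives used DESeq2 1.42.0, limma-voom 3.58.1, other scalings, other filters, background subtraction, a block for the replicate number, and each library left out in turn. The expected-read comparison, the comparison of Control replicate 1 with the other Control libraries and 2 combined settings were added after the data were examined. The members, the lists and the scalings were chosen with earlier results of these data known. Named genes are the members, Ctnnb1, Jup and Alb and, per list, the 2 with the smallest adjusted p and the 1 with the highest Control level per length. Markers at 0 are also named, as are 1810014B01Rik, Catsper2 and Mars, which overlap members. Pecam1, Sox9, Spp1, Epcam, Krt7, Sdc1, Ms4a1, Jchain and Pou2af1 were chosen after their values were seen. Planned protein features were not analysed here. Reads carry no molecular identifiers, so 95% intervals (Poisson for reads, Wilson for shares) cover counting error only.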

Additional observations from a re-analysis of the deposited data

Results flagged for a closer look

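Uniquely aligned reads that fell in no gene, which no comparison above uses, made up 73.7%, 65.3% and 61.0% of reads in DKO replicates 1, 2 and 3, above the 37.8% to 40.6% of the Control libraries. Groups of 3 are too small for a check of single libraries that stand apart.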

How the results depend on the processing

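The depth of the DKO-labelled libraries is the main limit: the members rest on 78, 1180 and 658 reads there. Members lower numbered 1 with limma-voom, without normalization, with background subtracted (with all libraries and without DKO replicate 1) and with the replicate block. They numbered 6 with DESeq2 size factors, 2 with upper-quartile normalization, 8 with DESeq2, 9 without a filter, 0 on the abundant-gene scale, 0 with background subtracted on that scale, 0 among genes with at least 50 CPM in Control (where 523 genes had an unadjusted p under 0.05 in edgeR), and 1 to 7 with 1 library left out. Members higher numbered 1 on the abundant-gene scale and 1 with background subtracted on it. All genes lower numbered 3577 with DESeq2 size factors, 84 on the abundant-gene scale, 4776 with DESeq2, 4650 without a filter, 0 among genes with at least 50 CPM, 1187 with background subtracted on the abundant-gene scale, 3141 with background subtracted and without DKO replicate 1, and 567 to 4492 with 1 library left out. All genes higher numbered 9735 on the abundant-gene scale, 11477 without a filter, 0 among genes with at least 50 CPM, 2303 with background subtracted, 3078 with that and without DKO replicate 1, and 4130 to 5624 with 1 library left out. Pathway genes lower numbered 51 with DESeq2 size factors, 34 with upper-quartile normalization, 0 on the abundant-gene scale, 64 with DESeq2, 62 without a filter, 0 among genes with at least 50 CPM, 8 with background subtracted on the abundant-gene scale, and 9 to 66 with 1 library left out. Pathway genes higher numbered 17 on the abundant-gene scale, 2 without a filter, 0 among genes with at least 50 CPM, 5 with background subtracted on the abundant-gene scale, 2 with background subtracted and without DKO replicate 1, and 1 to 2 with 1 library left out.

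Log2 fold changes turned positive on the abundant-gene scale for Hspa5 (1.10), Hsp90b1 (1.14), Calr (0.12), Canx (2.09), P4hb (0.56), Pdia3 (0.55), Pdia4 (2.66), Ddit3 (2.07), Sil1 (0.70), Ppib (1.00), Erp29 (2.77), Rpn1 (1.44), Ddost (2.64), Derl2 (2.41), Selenos (0.13), Herpud1 (1.15), Sec61b (3.67), Eif2s1 (2.31), Creb3l3 (0.33), Cebpb (3.86), Dnajb1 (1.205), Ctnnb1 (0.89) and Jup (3.91). With background subtracted on that scale they were positive for Hspa5 (0.65), Hsp90b1 (0.84), Canx (1.78), P4hb (0.28), Pdia3 (0.44), Pdia4 (2.19), Ddit3 (1.91), Ddost (1.94), Herpud1 (0.65), Sec61b (3.55), Cebpb (3.74) and Ctnnb1 (0.49). Among genes with at least 50 CPM in Control, Canx (0.0059), Pdia4 (0.62), Erp29 (0.32), Sec61b (1.02) and Cebpb (1.88) turned. Cebpb also turned with background subtracted (0.065), and without DKO replicate 1 as well (0.39). Ddit3 turned without normalization (0.094), with background subtracted and without DKO replicate 1 (0.25), and without DKO replicate 3 (0.22), while leaving out DKO replicate 2 gave it -4.22. Beyond the different scale, gene set or libraries of each setting, the cause was not tested.

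Deviations of same-numbered libraries correlated at 0.12, 0.07 and -0.02 for numbers 1, 2 and 3, so the numbers were not taken to pair animals. With the replicate block, 42 pathway genes were lower in place of 21, and 2179 of all genes were lower and 4143 higher.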
